A study of Homo sapiens with 36 samples.

Results

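A549 cells, a line of human lung adenocarcinoma, were cultured with interleukin-1β (IL-1β, 1 ng/ml) for 21 days, and the cytokine was then withdrawn. The comparison described here covers the interval from day 6 to day 30 after withdrawal. For each gene, the response is the difference between previously exposed and never exposed cells of the same day on the log2 scale, and the quantity examined is the response at day 30 minus the response at day 6. It uses 12 of the 36 RNA-seq libraries in the series, with 3 in each of 4 groups: control and previously exposed A549 cells at day 6, and the same at day 30. All groups are 1 cell line, split every few days, and no group of the interval held IL-1β at collection. The labels number the libraries of each group as biological replicates 1 to 3 and do not say whether they came from separate cultures, so p-values measure the spread between these libraries.

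IL-1β binds its receptor and, through MyD88, activates NF-κB and AP-1, which switch on cytokine and chemokine genes within hours. In carcinoma cells, prolonged exposure can also drive an epithelial-to-mesenchymal transition (EMT), in which junction and epithelial identity genes fall and matrix, integrin and motility genes rise under factors such as SLUG (the product of SNAI2) and ZEB2. The question of the interval is which parts of such a program go on decaying after the first days without the cytokine, which stay, and which move further.

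The 12 libraries held 9116032 to 21653670 counts on genes. The share of counts on mitochondrially encoded genes lay between 6.13% and 7.39% in 7 libraries and between 12.2% and 23.2% in the other 5, which were replicate 2 of every group and replicate 1 of the control cells at day 6. The groups therefore did not carry this share equally, and its part in the results was not tested beyond the fits given beside them. No mitochondrially encoded mRNA passed the test for the change (0 of 13), and the median of their changes was -0.57. Of 12 markers of A549 cells, KRT19 alone was at or below 3 counts in every library of each group. The summed level of the list was 7077 to 25068 CPM. For this and the other marker sums, CPM are counts relative to the library total without TMM scaling. For single genes, in the paragraphs that follow, CPM are counts relative to the library total after TMM scaling. The summed levels were 7.29 to 20.3 for 10 leukocyte markers, 1.57 to 14.7 for 7 endothelial markers and 1.32 to 4.80 for 9 fibroblast markers, with PTPRC, CD3E, CDH5, KDR, TEK, COL3A1, LUM, THY1 and FAP at or below 3 counts in every library of each group.

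The change of the response was past both thresholds, an adjusted p under 0.05 and a fold change over 2, for 1 gene. This gene was INHBB, which encodes the βB subunit of activins and inhibins, ligands of the TGF-β family. In edgeR's quasi-likelihood test over 19180 genes the share called was 0.00521%, and 550 genes (2.87%) had an unadjusted p under 0.05, of which the change was positive in 258 (1.35%) and negative in 292 (1.52%). The median standard error of the change over all genes was 0.446 on the log2 scale. Many smaller changes may therefore not have been detectable with 3 libraries a group.

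INHBB (ENSG00000163083) lies on chromosome 2 from 121103712 to 121109379 of GRCh37, on the plus strand. At day 6 the control libraries held 145, 118 and 161 CPM and the exposed libraries 12.2, 14.7 and 16.0. At day 30 the control libraries held 143, 136 and 193, and the exposed libraries 41.4, 41.9 and 68.6. Exposed and control libraries did not overlap at either day, and every exposed library of day 30 was above every exposed library of day 6 and below every control library. The response was -3.31 (standard error 0.192) at day 6 and -1.64 (standard error 0.188) at day 30, so that 49.5% of the log2 response was left. It had been -4.97 at day 21 of exposure and was -2.36 at day 15 after withdrawal. The change was 1.67 (standard error 0.269, 95% interval 1.12 to 2.22, edgeR quasi-likelihood adjusted p = 0.0224). Within replicates 1, 2 and 3 it was 1.77, 1.30 and 1.83. The exposed cells moved by 1.83 and the control cells by 0.15.

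The size of the INHBB change was between 1.39 and 1.90 over 30 fits, while its call was not stable. It was lost in edgeR when 1 of 7 libraries was left out: replicate 1 of the control (adjusted p = 0.0873) or exposed (0.206) cells of day 6, replicate 1 of the control cells of day 30 (0.158), replicate 2 of the exposed cells of day 6 (0.0771), replicate 2 of the control cells of day 30 (0.109), replicate 3 of the control cells of day 6 (0.143) and replicate 3 of the exposed cells of day 30 (0.160). All 11 libraries of high mitochondrial share in the series, 5 of them in the interval, were then left out. This left 25 libraries and 1 control library at day 6, and the change was 1.90. With high share (over 10% or not) as a covariate in all libraries, the change was 1.72 (edgeR adjusted p = 0.00325).

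The 250 bases before the annotated start of INHBB are shown because it is the gene that passed, with those of CXCL8, a chemokine gene of the immediate IL-1β response that was among the 10 decreases with the lowest p without passing. Capitals mark matches, on either strand, to TGANTCA (AP-1), CAGGTG (an E-box of the kind SLUG binds) and a consensus NF-kB motif. The sequences are from RefSeq, GRCh38.p14, plus strand, at chr2:120345886-120346135 and chr4:73740319-73740568.
INHBB: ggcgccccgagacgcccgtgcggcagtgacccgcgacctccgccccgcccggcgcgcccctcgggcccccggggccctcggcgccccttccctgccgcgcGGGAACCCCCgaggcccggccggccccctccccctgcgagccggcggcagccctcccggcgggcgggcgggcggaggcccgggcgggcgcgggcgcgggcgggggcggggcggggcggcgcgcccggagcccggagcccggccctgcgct
CXCL8: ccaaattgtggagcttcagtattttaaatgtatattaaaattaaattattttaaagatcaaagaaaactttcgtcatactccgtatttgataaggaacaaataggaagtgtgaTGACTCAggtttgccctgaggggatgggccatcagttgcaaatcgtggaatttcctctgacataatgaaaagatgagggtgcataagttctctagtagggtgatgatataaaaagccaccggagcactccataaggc
The INHBB stretch held 1 match to the NF-kB motif, beginning 150 bases before the start, which is found in 9.96% of 35116 promoter stretches of this length. The CXCL8 stretch held 1 AP-1 match, beginning 137 bases before the start, a motif found in 6.57% of the stretches. Neither held CAGGTG, which 17.5% hold. The CXCL8 stretch held no match to the NF-kB motif as searched. Sequences that differ from that motif were not marked, so the lack of a match does not show the lack of a site. A match describes letters and not a bound site.

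**Figure D1:**
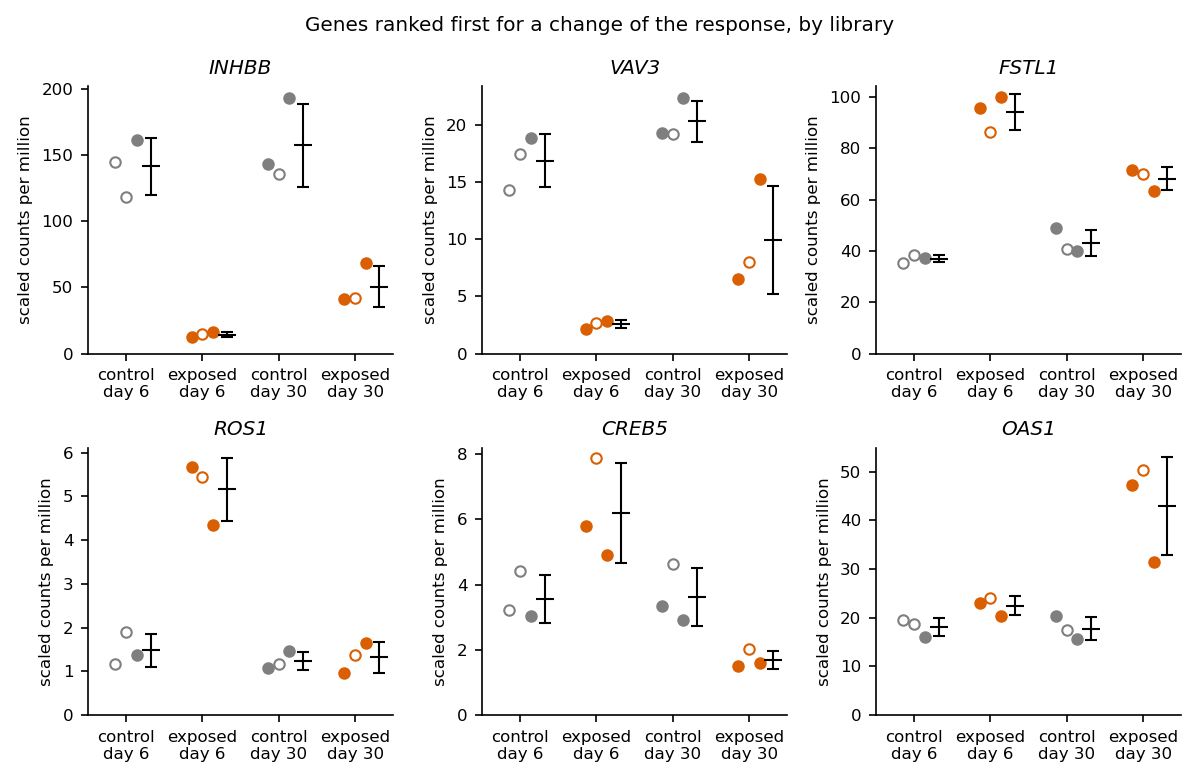
Scaled CPM (linear axis from 0) in each of the 12 libraries for 6 of the 20 genes ranked for a change of the response. They were chosen for display and are not the 6 with the lowest p. Grey points are control and orange points previously exposed cells, open points are libraries with over 10% mitochondrial counts, and bars give the mean ± SD of 3 libraries. INHBB in exposed cells lay at 12.2 to 16.0 on day 6 and 41.4 to 68.6 on day 30, below all controls.

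Ranked by p within each direction, 9 further genes with a positive change and 10 with a negative one were examined. Their unadjusted p lay between 3.98e-05 and 0.00195, and none passed (lowest adjusted p = 0.266, edgeR quasi-likelihood). All 20 genes, INHBB included, had the same sign of change within each of the 3 replicate numbers, as the ranking favours. The values below are therefore a description of the leading genes and not of genes shown to differ between the days.

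Among the positive changes were genes that IL-1β had lowered. VAV3, a guanine nucleotide exchange factor of cell signalling, held 14.3, 17.4 and 18.9 in control and 2.18, 2.67 and 2.84 in exposed libraries at day 6. At day 30 it held 19.3, 19.2 and 22.4 in control and 6.52, 8.0 and 15.3 in exposed libraries, which still lay below the controls. Its change was 1.70 (standard error 0.387, adjusted p = 0.471). FGB, the fibrinogen β chain, held 0, 2 and 7 counts in the exposed libraries at day 6 and 34, 52 and 58 at day 30, against 79 to 269 and 251 to 269 counts in the controls. Its change was 2.86 (standard error 0.817). DEFB1, a β-defensin of epithelia, had 1, 0 and 14 counts in exposed libraries at day 6 and 47, 60 and 125 at day 30, with a change of 3.08 (standard error 0.908). For these 3 genes and INHBB the response at day 30 was still past both thresholds.

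The response of VAV3 at day 30, -1.02, lost its call without any 1 of 11 of the 12 libraries, replicate 3 of the exposed cells of day 30 being the exception (adjusted p = 0.0494 with all libraries, edgeR). The response of FGB at day 30, -2.83, kept its call in all 12 omissions. That of DEFB1, -2.65, lost it without replicate 1 or 2 of the exposed cells or replicate 3 of the control cells of day 30.

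Other positive changes crossed or left the control level. H19, an imprinted long non-coding RNA, held 2.84, 1.64 and 2.32 in control and 0.601, 0.812 and 1.51 in exposed libraries at day 6, and 2.80, 2.44 and 2.90 against 3.60, 4.55 and 6.17 at day 30. The exposed libraries were thus the lower group at day 6 and the higher group at day 30, with no overlap at either (change 1.99, standard error 0.544). The response of H19 passed at neither day (-1.18 and 0.81, edgeR adjusted p = 0.164 and 0.505). Ranking by the change favours such a crossing. OAS1, an interferon-stimulated sensor of double-stranded RNA, held 23.1, 24 and 20.4 in exposed libraries at day 6 and 47.2, 50.3 and 31.5 at day 30, while the controls were between 15.5 and 20.4 at both days. NNMT, nicotinamide N-methyltransferase, held 44.8, 40.8 and 52.8 in exposed libraries at day 6 and 70.2, 79.4 and 70.2 at day 30, with controls of 24.3 to 38.2 and 18.1 to 28.8. The responses of OAS1 (1.27) and NNMT (1.58) were past both thresholds at day 30 and not at day 6 (0.31 and 0.61), and their changes of 0.96 and 0.97 were not. PLCG2, a phospholipase C, had a change of 0.62. The antisense transcript PRMT5-AS1, with 34.7% of its exon length over exons of the opposite strand, and the histone pseudogene H3P14, whose reads may belong to near-identical histone genes, had changes of 2.28 and 1.97.

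Among the negative changes, the smallest p belonged to FSTL1, a secreted follistatin-like glycoprotein. It held 35.3, 38.4 and 37.4 in control and 95.5, 86.4 and 100.1 in exposed libraries at day 6, then 48.9, 40.7 and 39.9 against 71.5, 69.8 and 63.3 at day 30. The exposed libraries stayed above the controls, and 49.0% of the log2 response of 1.34 was left (change -0.69, standard error 0.141, adjusted p = 0.266). ROS1, a receptor tyrosine kinase, held 5.68, 5.45 and 4.34 in exposed libraries at day 6 and 0.950, 1.37 and 1.64 at day 30, when they overlapped the controls at 1.08, 1.16 and 1.48. Its response was 1.79 at day 6 and 0.09 at day 30 (change -1.70, standard error 0.358). GALNT5, an enzyme that starts O-glycosylation of mucins, and CREB5, a bZIP factor that binds cyclic AMP response elements, went from above to below their controls without overlap at either day. GALNT5 held 3.00, 2.2 and 1.97 in exposed libraries at day 6 and 0.611, 0.650 and 0.374 at day 30, and its controls held 0.772 to 1.82 at both days. CREB5 held 5.79, 7.88 and 4.92 and then 1.49, 2.02 and 1.59, with controls of 2.90 to 4.63. At day 6 the response of neither gene passed (GALNT5 0.89, CREB5 0.79). At day 30 GALNT5 passed as lower (-1.46) and CREB5 did not (-1.07). The GALNT5 call was lost without any 1 of 5 libraries of that day, replicate 2 of the controls being the exception.

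The remaining negative changes were -3.39 for GASK1B, a Golgi-associated protein, -2.33 for CXCL8, -1.60 for ABAT, the transaminase of γ-aminobutyric acid, -1.22 for SYNC, an intermediate filament protein with 58.0% of its exon length over exons of the opposite strand, -0.98 for SYTL2, a vesicle trafficking protein, and -0.96 for MATN2, a matrix adaptor. CXCL8 held 2.29, 2.32 and 2.66 in exposed and 0.258, 1.47 and 0.945 in control libraries at day 6, and 0.747, 0.780 and 0.514 against 0.699, 2.19 and 1.38 at day 30. Its response of 6.91 at day 21 of exposure was 1.36 at day 6 after withdrawal, where it did not pass the test. Of the 10 negative genes, 7 had a response past both thresholds as higher at day 6, against 1.08% of all genes. The ranking favours this, since the change subtracts the day 6 response.

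With high mitochondrial share (over 10% or not) as a covariate, 11 genes passed for the change. SNAI2 (-2.27, adjusted p = 0.00557), CCL2 (-2.24, adjusted p = 0.00910), CREB5 (-1.95, adjusted p = 0.0421) and ROS1 (-1.76, adjusted p = 0.0426) were among the decreases, and DEFB1 (3.53, adjusted p = 0.0225) and APOC1 (1.39, adjusted p = 0.0426) among the increases, all in edgeR. With the 11 libraries of high share left out, no gene passed, with 658 at an unadjusted p under 0.05, and the control group of day 6 then held 1 library.

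The 2 arms of the interval were then compared separately. In exposed cells, 78 genes (0.407%) differed between day 30 and day 6, 54 lower (0.282%) and 24 higher (0.125%) at day 30. This split was not stable. It was 133 lower and 138 higher with high mitochondrial share as a covariate, and 153 and 150 with that covariate and a replicate block. Without replicate 3 it was 57 and 61. In control cells no gene did in edgeR's quasi-likelihood test (670 genes, or 3.49%, at an unadjusted p under 0.05), and 1 gene did in DESeq2. The 78 is not a count of genes that differed between the arms, since that difference is the change above, for which 49 of the 78 had an unadjusted p under 0.05. Of the 54 lower genes, 40 had been past both thresholds as higher at day 21 of exposure, and of the 24 higher genes 23 as lower. Over all genes 4.26% were called at day 21, 2.19% as higher and 2.06% as lower, in libraries that the interval does not use. The count of 78 fell to 26 without replicate 1 and 31 without replicate 2 of the exposed cells of day 6, fell to 22 without replicate 3 of the exposed cells of day 30, and was 153 without replicate 3 of the exposed cells of day 6. In the 12 libraries fitted alone it was 0 in edgeR (991 genes at an unadjusted p under 0.05).

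The genes that fell in exposed cells included SNAI2, CCL2, TNC and IL32. SNAI2, the gene of SLUG, held 15.7, 44.9 and 13.5 at day 6 and 3.53, 4.94 and 3.04 at day 30 in exposed libraries, and 4.51, 4.23 and 1.72 and then 1.99, 3.86 and 1.13 in the controls. Exposed libraries overlapped the controls at day 30 and not at day 6. The exposed cells moved by -2.68 (standard error 0.451, edgeR adjusted p = 0.00419) and the control cells by -0.62, and the call was lost without replicate 2 of the exposed cells of day 6 or replicate 3 of those of day 30. CCL2, a monocyte chemokine, held 8.68, 13.7 and 5.21 and then 1.36, 2.60 and 1.12 in exposed libraries, a move of -2.43 against -0.43 in the controls, with its call lost without replicate 3 of the exposed cells of day 30. TNC, the matrix protein tenascin C, moved by -2.14 in exposed and -1.55 in control cells. The change of its response, -0.59 (standard error 0.77), was too uncertain to show whether the response stayed or fell. IL32, a cytokine, moved by -1.77 and -1.18, and its exposed and control libraries overlapped at both days.

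The genes that rose in exposed cells included secreted coagulation proteins and aldo-keto reductases. Fibrinogen chains FGA and FGB and the fibrinogen-like FGL1 rose by 2.62, 3.72 and 2.70, against 0.73, 0.85 and 0.72 in controls. The aldo-keto reductases AKR1C1, AKR1C2 and AKR1C3 rose by 1.20, 1.56 and 1.16, against 0.69, 0.69 and 0.50 in controls; reads may be split between these near-identical copies. CDKN1C, a cyclin-dependent kinase inhibitor, rose by 2.22 against 1.05. The calls of FGL1, AKR1C1, AKR1C3 and CDKN1C were each lost without replicate 1 or 2 of the exposed cells of day 6 or replicate 3 of those of day 30, and that of FGA without replicate 1 of day 6. Over the 78 genes, 72 had the same sign in control cells, and the median move was -1.58 in exposed and -0.46 in control cells for the lower genes and 1.51 and 0.55 for the higher ones.

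**Figure D2:**
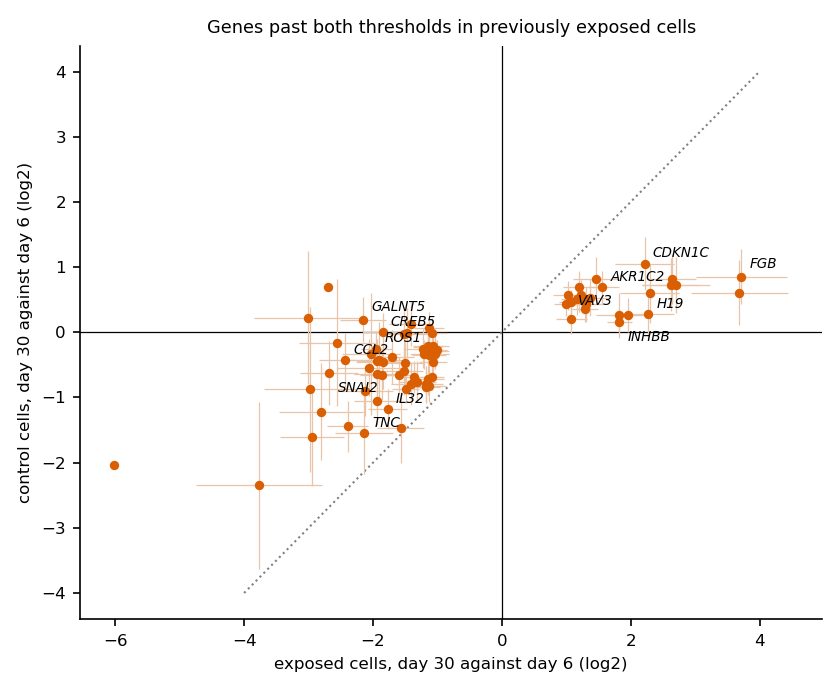
Log2 difference between day 30 and day 6 in exposed cells (x axis) and control cells (y axis) for the 78 genes past both thresholds in exposed cells, with standard errors where the fit gave them. The dotted line marks equal moves, which would leave the response unchanged. INHBB, at 1.83 and 0.15, lies close to the x axis, and TNC, at -2.14 and -1.55, close to the dotted line.

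To follow the whole IL-1β program with genes not chosen from these libraries, 673 genes were taken that had been called at no fewer than 2 of the 3 exposure days (6, 15 and 21) with 1 direction, 333 higher and 340 lower. Over all genes 2.77%, 4.24% and 4.26% were called at these days. Signed by that direction, they had a median response of 1.78 on the last day of exposure. After withdrawal this median was 1.11 (day 6), then 0.79 (day 15), then 0.70 (day 30), and the quartiles of the last were 0.30 and 1.18. The response was smaller at day 30 than at day 6 in 79.3% of the 673 genes, with a median change of -0.39. Over all 19180 genes, signed by day 21, 58.6% had a negative change and the median was -0.07. Within replicates 1, 2 and 3 the median change was -0.30, -0.50 and -0.38, the last from 4 libraries of low and the second from 4 of high mitochondrial share. The higher genes (median -0.39) and the lower genes (median -0.38) gave like values.

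The move was seen in both arms. In the direction of exposure, exposed cells moved by a median of -0.72 between the days and control cells by -0.30. These values share libraries with the change and are given side by side. Of the 673 genes, 91.7% and 81.3% were negative. Over all 19180 genes, signed by day 21, 64.8% and 59.3% were negative, with medians of -0.13 and -0.06. For the 673 genes, the control median in replicates 1, 2 and 3 was -0.33, -0.24 and -0.28. With the 11 high-share libraries of the series left out, which also redefined the set as 838 genes, it was -0.15 and the median change was -0.52. Time in culture and handling cannot be told apart in the control cells.

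Among the 673 genes, 252 were past both thresholds in the exposure direction at day 6 after withdrawal, 129 at day 15 (0.954% of all genes in either direction) and 113 at day 30. The 129 genes of day 15, chosen on libraries outside the interval, had a median response of 1.94 at day 6 and 1.61 at day 30. The other 544 had 0.94 and 0.55. The median change was -0.39 in both sets.

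**Figure D3:**
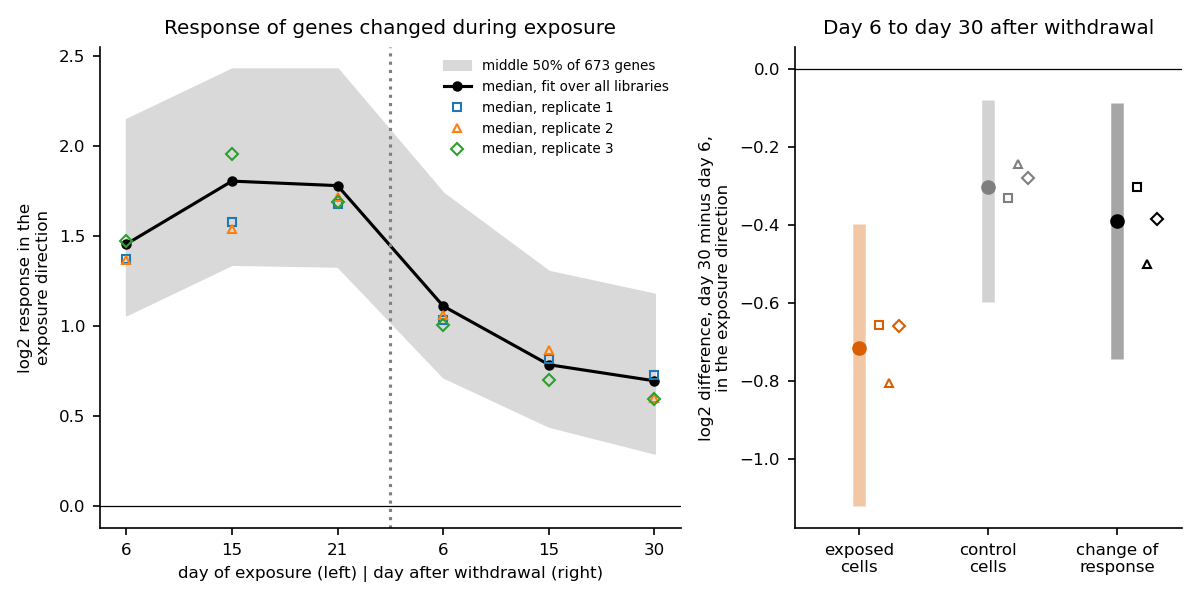
Left, log2 response in the exposure direction of the 673 genes at 3 days of exposure and 3 days after withdrawal, as median, middle 50% and medians within each replicate number. Right, the difference between day 30 and day 6 for exposed cells, control cells and the response, with medians of -0.72, -0.30 and -0.39 (filled points), the middle 50% of genes (bars) and the replicate medians (open symbols).

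Single genes were next sorted by their response at each end. At day 6, 346 genes (1.80%) had a response past both thresholds, 207 higher (1.08%) and 139 lower (0.725%), and at day 30 172 genes (0.897%), 83 higher (0.433%) and 89 lower (0.464%). The split at day 30 was not stable. It was 83 and 54 with total counts in place of TMM scaling, 164 and 150 with high mitochondrial share as a covariate, and 102 and 116 with a replicate block. In the main fit, 110 genes (31.8% of those of day 6 and 64.0% of those of day 30) were called in the same direction at both days. Of these, 55 were higher and 55 lower, and no gene was called in opposite directions. Of the 110, 100 had also been called in that direction at day 21. Their median response was 1.97 at day 6 and 1.81 at day 30. A missing call for the change is not evidence of a constant response: its 95% interval lay within a fold change of 2 either way for 24 of 109 of these genes with an interval and for 45 of the 346. Of the 346 genes, 304 had a response closer to or past 0 at day 30, but these genes were chosen at day 6, which favours large values there. The count at day 6 was 206 without replicate 1 of the exposed cells and 195 without replicate 3 of the control cells of that day. The count at day 30 was 65 without replicate 1 and 62 without replicate 2 of the exposed cells and 58 without replicate 3 of the control cells of that day.

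The genes that stayed higher were led by PTPRD, a receptor-type tyrosine phosphatase of cell adhesion. Its exposed libraries held 6.72, 6.49 and 7.30 at day 6 and 4.28, 4.68 and 3.74 at day 30, and its controls 0.645, 0.605 and 0.215 and then 0.323, 0.643 and 0.246. Exposed and control libraries did not overlap at either day. The response was 3.96 and 3.53, with a change of -0.43 (95% interval -1.68 to 0.83). ITGB3, the β3 integrin of fibronectin and vitronectin receptors, held 32.1, 32.1 and 27.9 against 7.74, 8.29 and 5.45 at day 6 and 24.5, 23.3 and 15.2 against 6.40, 5.66 and 4.03 at day 30. Its responses were 2.11 and 1.97, the change -0.14 (95% interval -0.90 to 0.62), and 33.2% of its exon length is shared with another gene on its strand. Both genes kept their calls at both days in each of the 12 single omissions.

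IL6, the cytokine interleukin-6, had 33.4, 47.1 and 27.2 against 5.03, 6.05 and 2.40 at day 6, and 20.7, 23.0 and 7.11 against 2.80, 5.02 and 0.492 at day 30. Its response had been 5.55 on the last day of exposure, and after withdrawal was 3.03 (day 6) and 2.74 (day 30). The call at day 30 was lost without replicate 2 of the exposed cells or replicate 3 of the control cells of that day, as it was for GBP1, a guanylate-binding GTPase, whose responses were 3.12 and 2.81. TNC (3.19 and 2.60) and NFASC, a neuronal adhesion protein (3.15 and 2.22), DMBT1, a mucosal scavenger protein (2.73 and 2.90), and SHISAL1 (2.66 and 2.37) followed. At day 30 the exposed and control libraries overlapped for TNC, and its call was lost without any 1 of 4 libraries: replicate 1 or 2 of the exposed cells or replicate 1 or 3 of the control cells of that day. The calls of DMBT1 and SHISAL1 at day 30 held in 8 and 9 of the 12 omissions. The non-coding STEAP1B-AS1, with 0 to 2 counts in control libraries, was at least 3.00-fold higher at day 6 and 3.08-fold at day 30 in exposed cells, taking 3 counts per control library as the floor, and its call at day 6 held in 5 of the 12 omissions.

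Of the genes called lower at both days, those with the largest responses at day 6 included CEACAM6, FGA, PPARGC1A and TOX3. CEACAM6, an adhesion molecule of epithelial membranes, held 2, 0 and 8 counts in exposed libraries at day 6 and 10, 12 and 57 at day 30, against 52 to 196 and 49 to 371 in controls, with responses of -4.98 and -2.77. FGA was at -3.67 and -1.78, and PPARGC1A, a coactivator of mitochondrial biogenesis, at -4.31 and -2.56. At day 30 the call of CEACAM6 was lost without replicate 1 or 2 of the exposed or replicate 3 of the control cells. For PPARGC1A it held in 9 and for FGA in 8 of the 12 omissions. TOX3, a chromatin-associated protein, was at or below 2 counts in all exposed libraries, at least 3.14-fold lower at day 6 and 5.68-fold at day 30. The non-coding LINC02747 was likewise at or below 2 counts, at least 1.57-fold and 2.78-fold lower.

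HNF4A and FOXA1, transcription factors of epithelial identity, were called lower at both days. HNF4A, a nuclear receptor of endodermal epithelia, held 2.73, 1.62 and 4.75 in exposed and 9.16, 5.18 and 21.6 in control libraries at day 6, and 4.28, 2.93 and 5.24 against 17.8, 9.78 and 27.2 at day 30. Its response was -1.96 and -2.14, with a change of -0.18 (95% interval -1.39 to 1.04). FOXA1, a forkhead pioneer factor, held 1.64, 1.74 and 1.62 against 2.45, 3.80 and 4.68, and then 1.97, 2.47 and 2.39 against 3.66, 6.30 and 6.34. Its response was -1.16 and -1.24, with a change of -0.08 (95% interval -0.83 to 0.66). CLDN2, a pore-forming claudin, was at -2.08 and -1.80 and kept both calls in each omission. The day 30 calls of HNF4A and FOXA1 were lost without replicate 1 of the exposed or replicate 3 of the control cells of that day, and that of HNF4A also without replicate 2 of the exposed cells; the day 6 calls were lost without the same replicates of day 6.

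**Figure D4:**
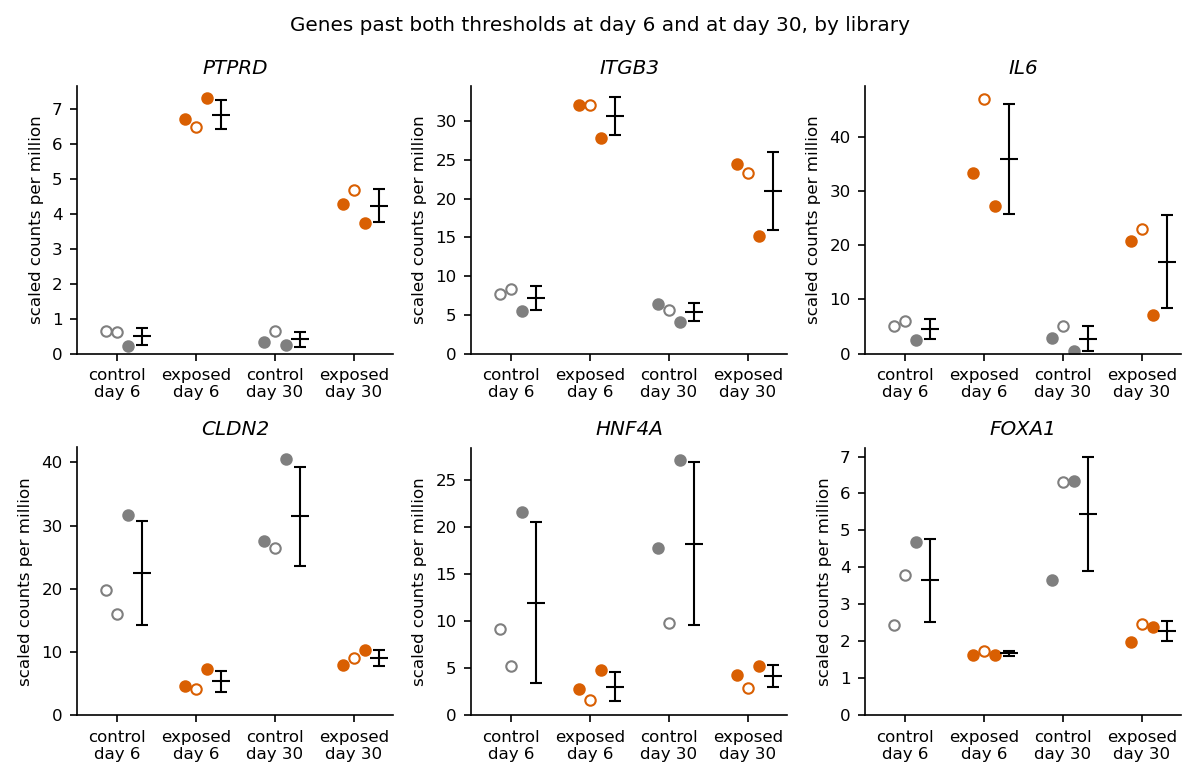
Scaled CPM (linear axis from 0) in each of the 12 libraries for 6 genes called with 1 direction at both days. Colours, open points and bars are as in the plot of the changed genes, and exposed and control libraries do not overlap at either day for any of the 6.

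Gene lists were then read by role, each as counts and the median response of its members, beside a median of all genes of 0.00 at day 6, 0.00 at day 30 and -0.02 for the change. Among 25 EMT and epithelial transcription factors tested, SNAI2 (2.86), ZEB2 (1.43) and RUNX2 (1.20) were higher and 3 factors, FOXA1 and HNF4A among them, lower at day 6. At day 30 the 3 lower factors were still called and the 3 higher ones were not, with responses of 0.80, 0.78 and 0.90. Their changes were -2.05, -0.65 and -0.29 (unadjusted p = 0.00536, 0.262 and 0.310, edgeR). None of the 3 changes passed after adjustment, so no loss was shown for these factors in this fit. SNAI2 passed with high mitochondrial share as a covariate, as given above. The median of the 25 factors was -0.0015 at day 6 and -0.02 at day 30. The call of ZEB2 at day 6 held in 6 of the 12 omissions.

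Of 48 mesenchymal and matrix genes, 7 were higher and 2 lower at day 6 and 3 higher and 1 lower at day 30, with medians of 0.43 and 0.16 and a median change of -0.30. A change with an unadjusted p under 0.05 was seen in 8 members, all negative, against 1.52% of all genes with a negative change at that p. The response of FN1, fibronectin, was -0.49 at day 6, where it did not pass, and -1.74 at day 30, where it did. The change of the FN1 response, -1.25, did not pass after adjustment in the main fit. Its exposed libraries held 145, 142 and 159 at day 6 and 78.2, 85.2 and 101 at day 30, below controls of 183 to 244 and 239 to 374, with no overlap at either day. COL13A1, a transmembrane collagen, stayed higher (2.32 and 2.32), as did NID2, nidogen-2 of basement membranes (2.44 and 1.69). THBS1, thrombospondin-1 (1.00 and 0.15), and LAMB3, a laminin chain (1.71 and 0.56), were called at day 6 only. Of 25 proteases and inhibitors, 4 were higher at day 6, among them the metalloproteinase MMP19 (2.02), and 1 was lower. At day 30 none was higher and ADAMTS9 was lower (-1.13), and the medians were 0.50 and 0.45. Of 21 integrins, ITGA5, ITGB3 and ITGB6 were higher at day 6 and ITGB3 alone at day 30, with medians of 0.27 and 0.18.

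Of 36 genes of epithelial junctions and keratins, 5 were lower at day 6 and 2 at day 30, with medians of -0.20 and -0.25. In the other direction, 1 gene, the hair keratin KRT81, was higher at both days (1.89 and 2.33). CDH1, E-cadherin, held 62.4, 61.2 and 138 in exposed and 190, 191 and 260 in control libraries at day 6, and 138, 151 and 230 against 252, 248 and 291 at day 30. The libraries did not overlap at either day, while its response of -1.29 passed at day 6 and that of -0.61 at day 30 did not. The change of 0.68 had a 95% interval of -0.16 to 1.53. The day 6 call was lost without replicate 1 or 2 of the exposed or replicate 3 of the control cells. KRT18, a simple-epithelial keratin, was at -1.21 and -0.52, and its call at day 6 held in 6 of the 12 omissions.

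Of 21 chemokines and cytokines, 6 were higher at day 6 and CCL20, IL6 and CSF1 at day 30, with medians of 1.04 and 0.22. CCL2 was called at day 6 (1.62) and was at -0.38 at day 30. Of 24 NF-kB feedback genes, TNFAIP3, the deubiquitinase A20 (1.27 and 1.09), and TRAF1 (2.61 and 2.03) were higher at both days, and the list median was 0.28 and 0.40. Of 32 interferon-stimulated genes, 4 were higher at day 6 and GBP1, GBP3 and OAS1 at day 30, with medians of 0.36 and 0.40. The 19 genes of MHC class I presentation had medians of 0.40 and 0.41, with PSMB9, an immunoproteasome subunit, called at day 30 (0.84 and 1.14). The median change was -0.29 for the chemokines and cytokines, 0.04 for the NF-kB feedback genes, -0.04 for the interferon-stimulated genes and -0.02 for the MHC class I genes.

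Of 21 coagulation and acute-phase genes, 6 were lower at day 6 and FGA, FGB, F5 and APOH at day 30. SERPINA1 (2.43), SAA1 (6.27) and F3 (1.34), tissue factor, were higher at day 6 and not called at day 30. The medians were -0.96 and -0.49. Of 12 checkpoint ligands, CD274 (2.07), which encodes PD-L1, PDCD1LG2 and NT5E (1.85) were higher at day 6 and none at day 30, when CD274 was at 0.73 and NT5E at 0.97, with list medians of 0.11 and 0.20. The change of CD274 was -1.34 (95% interval -2.84 to 0.15), and its day 6 call was lost without 1 of 4 libraries, replicate 1 or 2 of the exposed or replicate 1 or 3 of the control cells of that day. PDCD1LG2 had 28, 8 and 12 counts in exposed libraries at day 6 and 4, 2 and 2 at day 30, against 0 or 1 in all controls. Of 38 TGF-β and BMP pathway genes, BMP4 (-1.44 and -1.30) and INHBB were lower at both days and FSTL1 higher at day 6. SMAD6, an inhibitory SMAD, was at -0.84 and -0.69 and passed at neither day, and the medians were 0.06 and -0.08.

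The other lists held few calls. C5 was the complement gene called at day 6, HDAC9 the chromatin enzyme, JUN the AP-1 factor and GADD45A the p53 target, and none of them at day 30. At an unadjusted p under 0.05, 11 of 21 p53 targets were higher at day 6 and 1 at day 30 (medians 0.50 and 0.23), and 12 of 31 sterol and fatty acid genes were lower at day 6 and 4 at day 30 (medians -0.47 and -0.14). SCD and STARD4 of sterol and fatty acid synthesis were lower at day 6 (-1.27 and -1.38) and not called at day 30. In glycolysis HK1 was higher at both days (1.24 and 1.07) and SLC2A3, a glucose transporter, lower at day 6 (-1.88). Of the NRF2 targets, GPX2, a glutathione peroxidase, stayed lower (-3.30 and -2.15), and AKR1C2 (-1.37) and AKR1C3 (-1.11) were lower at day 6. No cell cycle gene (0 of 51) and no endoplasmic reticulum stress gene (0 of 20) was called at either day by edgeR, with 5 of each 51 at an unadjusted p under 0.05 at day 6 and at day 30, and 2 and 1 of the 20. Over all genes the shares at that p were 9.59% and 8.35%.

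The call at day 30 alone was found for 62 genes, 28 higher and 34 lower. None had a change past the thresholds, 15 had an unadjusted p under 0.05 for it, and 60 already had the same sign at day 6. At day 21 of exposure 18 of the 62 had been called in the same direction. They therefore cannot be called late responders from these data.

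**Figure D5:**
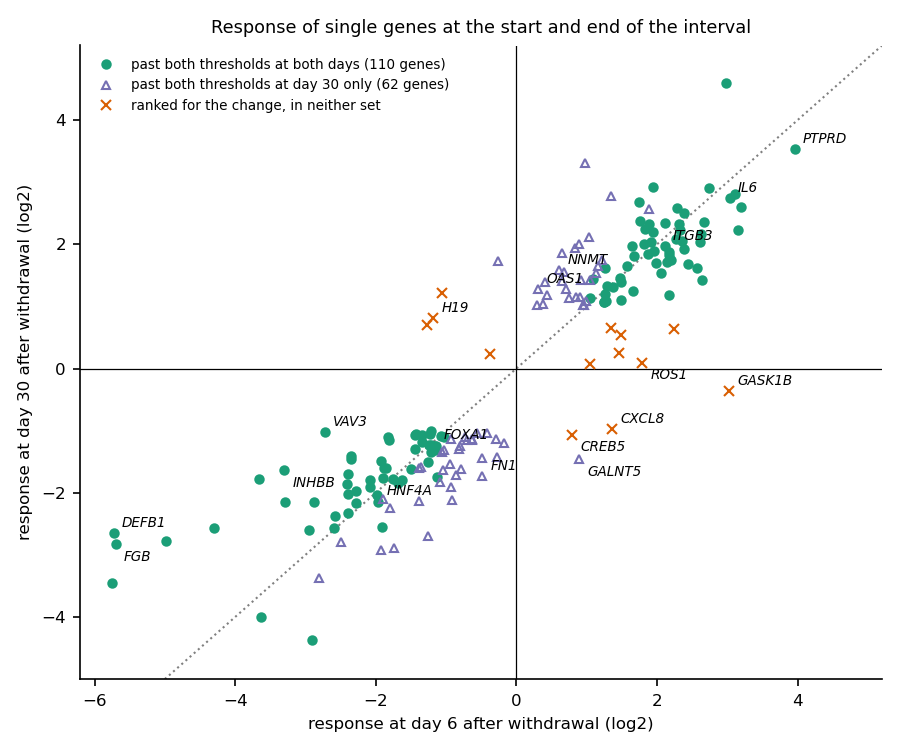
Response at day 6 (x axis) and day 30 (y axis) after withdrawal on the log2 scale, for 110 genes past both thresholds at both days, 62 at day 30 only, and further genes ranked for the change. The dotted line marks an unchanged response. ROS1, at 0.09, lies near 0 on the y axis, and FN1 and OAS1 lie further from 0 at day 30 than at day 6.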

How the data were processed

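RNA was measured by sequencing poly(A) libraries made with a stranded mRNA kit from A549 cells, 36 libraries in 12 groups of 3. Per the submitters' processing notes and methods, the authors aligned single-end reads to GRCh37 with TopHat2 (2.0.14) and Bowtie2 (2.2.5) and deposited raw counts per gene from HTSeq (0.6.1). The strand setting and annotation release are not given in the sources used here. Rows that name no gene were left out of library sizes and held 8.96% to 18.6% (no feature) and 2.62% to 4.18% (ambiguous) of the counts of the 12 libraries.

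Counts were fitted in edgeR (4.0.16, R 4.3.3) with its quasi-likelihood test, TMM scaling and filterByExpr, over all 36 libraries, and 19180 genes were tested. A gene was called at a Benjamini-Hochberg adjusted p under 0.05 and a fold change over 2. The change is the interaction contrast of day and exposure. Standard errors and 95% intervals are Wald estimates, and a few genes with a group at 0 have none. Depth was 9116032 to 21653670 counts on genes per library; replicates differed by 10.5 to 200 times counting noise (chi-square per degree of freedom), so the standard errors hold more than counting error. The named genes were those called for the change, filled up to 10 in each direction by p, the 8 genes with the largest day 6 response in each direction that were called again at day 30, up to 4 called members of each list by p for the change, and list members the study names. Other list members, genes called only in another fit, and the hair keratins were named after their values were seen. The members and lists were chosen with earlier results of these data known. Scripts were tested on simulated counts. Alternatives were other scaling, filters, tests (DESeq2 1.42.0), a replicate block, the mitochondrial share, and omission of libraries. Wherever the mitochondrial share is a covariate, it entered only as over 10% or not. GENCODE annotation lifted to GRCh37 gave names, and RefSeq GRCh38.p14 the promoter sequences.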

Additional observations from a re-analysis of the deposited data

Results flagged for a closer look

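INHBB stood out because its response to earlier IL-1β exposure differed between the 2 time points in the test of that difference itself. The change from day 6 to day 30 was 1.67 on the log2 scale (edgeR quasi-likelihood adjusted p = 0.0224). It was positive in 3 of 3 replicate numbers, which the choice of the gene on these libraries favours. Over 30 fits the adjusted p ran from 4.38e-05 to 1.00, and 17 of them called the gene.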

How the results depend on the processing

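The 82 named genes gave 2503 values under the alternatives, of which 2089 kept direction and side of the threshold, 399 lost a call, 15 gained one and 0 reversed; the causes were not tested. The split of higher against lower calls did turn. At day 30 it went from 83 and 89 to 83 and 54 with total counts. It also turned with no filter (74 and 71), at least 10 counts (51 and 41) and the mitochondrial share (164 and 150). The 12 libraries alone gave 16 and 13, and a fold of 1.5 gave 25 and 21. More stayed lower with DESeq2's size factors (78 and 91), the likelihood ratio test (118 and 121) and the block (102 and 116). Single omissions went both ways. The exposed arm went from 24 and 54 to 138 and 133 with the mitochondrial share and 61 and 57 without replicate 3. The change was called for 1 gene, and for 0 with total counts, the 12 libraries alone, without libraries of high mitochondrial share, in the test against a fold change of 1.5 or at an adjusted p under 0.01, for 2 in the likelihood ratio test, 3 in DESeq2, 11 with the mitochondrial share as covariate and 27 with that and the replicate block. The day 6 response (346) gave 188 genes with at least 10 counts in every library, 123 in the 12 libraries alone, 538 with the mitochondrial share, 175 against a fold of 1.5 and 222 at 0.01. The day 30 response (172) gave 92, 29, 314, 46 and 78 under the same settings, 263 with the block within each time point and 345 with share and block. The control arm (0) gave 1 in DESeq2, the likelihood ratio test, the block, and share with block. The exposed arm (78) gave 46, 0, 271, 17 and 35 under the 5 settings, 140 in DESeq2, 161 in the likelihood ratio test, 131 with the block and 303 with share and block.

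The set of exposure genes was redefined in each setting (231 to 993 genes, against 673), so its medians are not over 1 set of genes. Its median response at day 6 (1.11) was 1.15 with no filter, 0.94 with at least 10 counts, 1.08 in the likelihood ratio test, 1.08 with the block, 1.04 with the block within time points, 1.15 with the mitochondrial share, 1.22 without high-share libraries, 1.28 against a fold of 1.5, 0.81 by adjusted p alone, 1.17 at 0.01, 1.25 for genes of all 3 exposure days and 1.08 for day 21. At day 30 (0.70) it was 0.60 with at least 10 counts, 0.78 against a fold of 1.5, 0.49 by adjusted p alone and 0.79 for all 3 days. The change (-0.39) was -0.53 with the share and -0.52 without high-share libraries. The control arm (-0.30) was -0.23 with the share, -0.26 with share and block, -0.15 without high-share libraries, -0.22 by adjusted p alone and -0.26 for day 21, and the exposed arm (-0.72) was -0.82 against a fold of 1.5, -0.54 by adjusted p alone and -0.84 for all 3 days.

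With single libraries or replicate numbers left out, counts ranged from 0 to 2 (change), 29 to 392 (day 6), 6 to 220 (day 30), 0 to 7 (control arm) and 0 to 153 (exposed arm), and medians from 0.94 to 1.34, 0.59 to 0.85, -0.59 to -0.21 (change), -0.49 to -0.18 (control arm) and -0.91 to -0.61 (exposed arm). Same-numbered libraries deviated together in 5 of 6 pairs of the interval, each of which matched its own number best. Replicate 1 of day 6 did not (correlation -0.114, against up to 0.718), and as the labels name no shared source and the criterion asked for every pair to be over 0.1, the block was kept as an alternative; it lowered the adjusted p of INHBB to 0.000201 and gave 1, 381, 218, 1 and 131 calls for the change, day 6, day 30, control and exposed arms. The median standard error of the change, 0.446, limits what 3 libraries a group can show.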

Other observations

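The following genes were chosen after their values were seen. Of 7 type II hair keratin genes and pseudogenes on chromosome 12 from 52643084 to 52800119 (GRCh37), 5 were past both thresholds as higher in exposed cells at both day 6 and day 30, when 1.08% and 0.433% of all genes were called higher. The log2 responses at day 6 and day 30 were 1.89 and 2.33 for KRT81, 2.28 and 2.09 for KRT83, 1.96 and 1.90 for KRT85, 1.83 and 2.25 for KRT86 and 1.92 and 2.04 for KRT87P. KRT84 was at 0.98 and 3.30 and was called at day 30 but not at day 6, and KRT82 was at 3.24 and 1.06 and was not called at day 30. KRT81 held 434, 382 and 304 CPM in exposed libraries at day 30 against 106, 59.6 and 57.6 in control libraries. Some of these genes are near-identical copies of each other, so reads may be split between those copies and their single values are uncertain.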
